A study of Mus musculus with 3 samples.

Results

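The genes described here are 10 vascular genes that endothelial cells are known to control through ETS transcription factors: the adhesion genes *Esam*, *Icam2*, *Jam3*, *F11r* and *Cdh5*, the receptor genes *Tek*, *Tie1*, *Kdr* and *Flt1*, and the co-receptor gene *Eng*. They were chosen by name from the 22367 protein-coding genes outside chromosome M in the mm9 annotation, by a rule that uses no read count, although earlier results of these data were known when the list was made. ChIP-seq reads for FLI1 and RUNX1 and reads of input DNA were counted around each of them in mature megakaryocytes (MK), the large bone marrow cells that shed platelets. All 3 libraries came from wild-type CD1 mouse fetal livers, taken at embryonic day 15 by the labels (the methods give an earlier day), whose cells were cultured in thrombopoietin for 5 days. Other blood lineages were removed with antibodies against Ter119, Gr1 and CD11b, and the large cells were collected by sedimentation through albumin, with small granulocyte and macrophage residuals by the study's account. There was 1 library for FLI1, 1 for RUNX1 and 1 for input, and each ChIP library pooled the DNA of at least 3 precipitates. No replicate was therefore available, no test between libraries was made, and every interval covers counting error only.

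FLI1 belongs to the ETS family, whose members bind DNA with a GGAA core. In endothelial cells FLI1 and its close relatives, ERG among them, occupy promoters and introns of genes for cell junctions and growth factor receptors, and megakaryocytes also make FLI1 and several of the junction proteins, which they pass on to platelets. RUNX1 binds the sequence TGTGGT and acts with ETS and GATA factors in blood cells.

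The 62946422 FLI1 reads gave on average 13.5 reads per 400 bp of mappable genome, the 3973856 RUNX1 reads 0.85 and the 21745220 input reads 4.65. The RUNX1 file holds far fewer reads than the study lists as uniquely mapped for this antibody, and each RUNX1 result here rests on the smaller number. A 400-bp bin with 7 RUNX1 reads, the minimum chosen for a rich bin, already lay 8.24-fold over the genome-wide rate, so bins of weaker RUNX1 enrichment were not called. As a check on the cells, 12 of 22 megakaryocyte genes had at least 2-fold more FLI1 than input around the transcription start site (TSS), led by *Itga2b*, the αIIb integrin gene, at 5.5-fold, *Nfe2* at 4.92-fold and *Pf4* at 4.25-fold, with *Gata1* lowest at 0.637-fold. The same held for 1 of 15 granulocyte and macrophage genes (*Mpo* at 2.45-fold, then *S100a9* at 1.97-fold and *Ctsg* and *Lyz2* at 1.68-fold, with *Ly6g* lowest at 0.583-fold), for 1 of 10 erythroid genes (*Epor* at 2.39-fold, then *Rhag* at 1.26-fold among those named, with *Slc4a1* lowest at 0.779-fold) and for 0 of 10 hepatocyte genes (*Afp* and *Cps1* at 1.24-fold and *Fgb* at 1.16-fold, with *Serpina1a* lowest at 0.173-fold). Over all genes with at least 10 input reads around the TSS, the share with at least 2-fold more FLI1 was 25.7%. The median of the granulocyte and macrophage genes, 1.52-fold, nevertheless lay above the 1.28-fold of all genes. All of these are values of binding and not of expression, so they do not measure how many cells of another type were present.

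Around their annotated starts the vascular genes had FLI1 levels close to those of genes in general. The interval lay above input for 4 of them, and the share of all genes with such an interval was not counted. In the window from 2 kb before to 2 kb after the TSS, 0 of 10 had at least 2-fold more FLI1 than input in reads scaled to library depth (RPM), against 25.7% of the 21346 genes with at least 10 input reads there. Their median was 1.23-fold, and the median of all genes was 1.28-fold.

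Among the junction genes, *F11r* (JAM-A, chr1:173367666-173394734 in mm9, plus strand), an adhesion protein of tight junctions and platelets, had 236 FLI1, 12 RUNX1 and 45 input reads in this window. FLI1 was 1.81-fold over input (exact 95% interval 1.31 to 2.55). *Icam2* (chr11:106238970-106249389, minus strand), a ligand of leukocyte integrins, had 298 FLI1, 11 RUNX1 and 62 input reads, a ratio of 1.66 (1.26 to 2.22). Both intervals lay above 1. *Esam* (chr9:37335663-37345904, plus strand), a junction protein of endothelium and platelets, had 199, 12 and 49 reads, a FLI1 ratio of 1.4 (1.02 to 1.96). For *Cdh5* (VE-cadherin, chr8:106625525-106668402, plus strand), the cadherin of endothelial junctions, the counts were 142, 7 and 46, a ratio of 1.07 (0.76 to 1.52). For *Jam3* (JAM-C, chr9:26904969-26963003, minus strand) they were 98, 10 and 35, a ratio of 0.967 (0.651 to 1.47). FLI1 at the starts of *Cdh5* and *Jam3* could thus not be told apart from input.

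The receptor genes spread over the same range. *Tie1* (chr4:118143796-118162666, minus strand), the partner receptor of *Tek* in angiopoietin signalling, had the highest ratio of the 10 genes, with 159 FLI1, 8 RUNX1 and 29 input reads and a FLI1 ratio of 1.89 (1.27 to 2.92). Against the genome-wide rate in place of input its value was 1.18, below *Icam2* at 2.21, *F11r* at 1.75, *Esam* at 1.48, *Eng* at 1.43 and *Kdr* at 1.37, so its rank depends on this choice. Part of its upstream side could not be read, since 15 successive bins from -7200 to -1200 bp held no read in any library. *Tek* (TIE2, chr4:94405980-94541667, plus strand), the angiopoietin receptor itself, had the lowest, with 143, 21 and 52 reads and a FLI1 ratio of 0.95 (0.687 to 1.33). *Flt1* (VEGFR1, chr5:148373180-148537587, minus strand) had 154, 9 and 42 reads, a ratio of 1.27 (0.895 to 1.83). *Kdr* (VEGFR2, chr5:76328852-76374483, minus strand), the main signalling receptor for VEGF-A, had 185, 15 and 54, a ratio of 1.18 (0.87 to 1.63). *Eng* (endoglin, chr2:32502115-32538189, plus strand), a co-receptor for TGF-β family ligands, had 193, 11 and 67, a ratio of 0.995 (0.75 to 1.33). The order of the FLI1 ratios, from high to low, was *Tie1*, *F11r*, *Icam2*, *Esam*, *Flt1*, *Kdr*, *Cdh5*, *Eng*, *Jam3* and *Tek*, and the intervals of neighbours overlapped throughout. *Tie1* stood at percentile 71.8 of all genes and *Tek* at percentile 30.2.

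**Figure D1:**
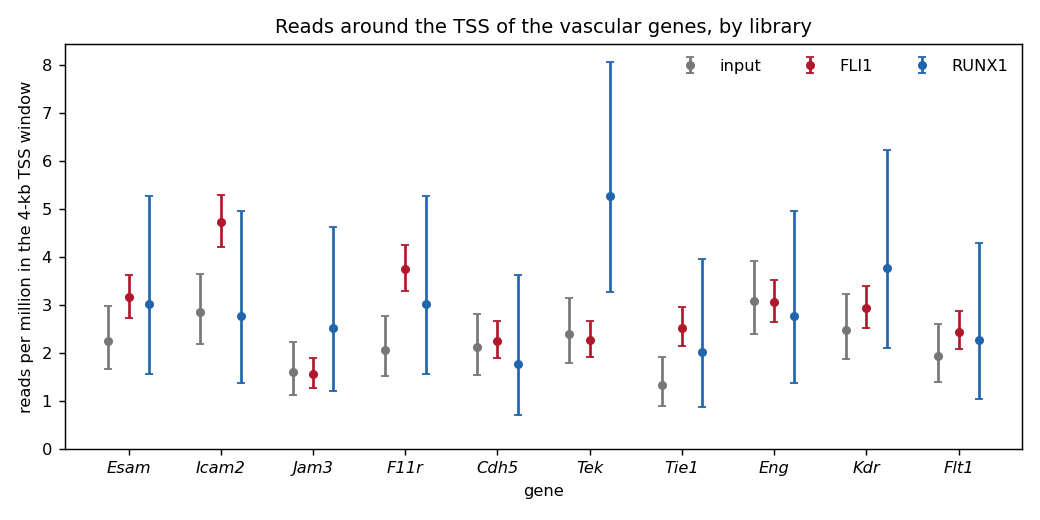
Depth-scaled reads (RPM) in the 4-kb window around the TSS (vertical axis, linear from 0) of the 10 vascular genes (horizontal axis) for input (grey), FLI1 (red) and RUNX1 (blue); points are single libraries and bars exact 95% Poisson intervals of the counts. FLI1 ran from 1.56 RPM at *Jam3* to 4.73 at *Icam2*, and the RUNX1 intervals are wide because the counts ran from 7 to 21 reads.

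**Figure D2:**
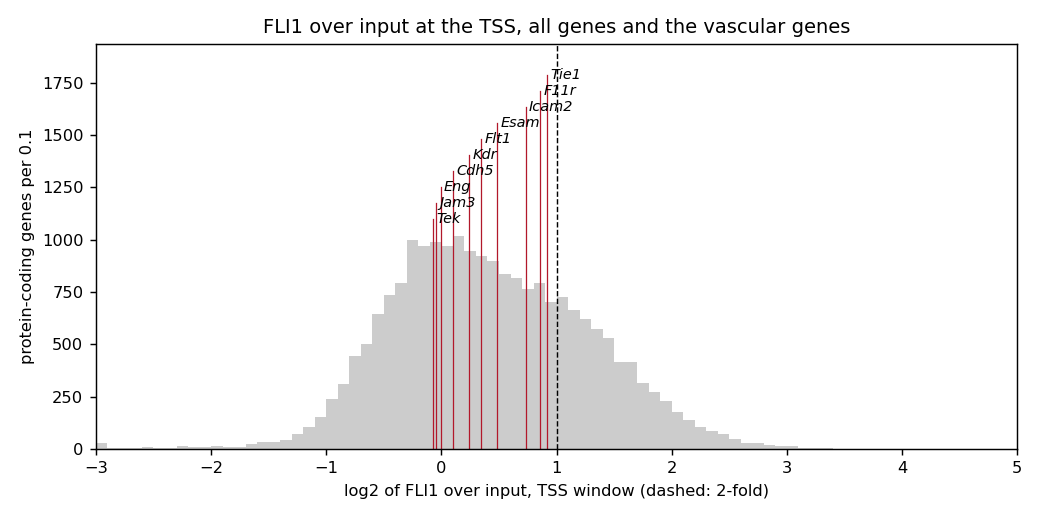
Number of protein-coding genes (vertical axis) by the log2 ratio of FLI1 to input in the TSS window (horizontal axis, in steps of 0.1; genes below -3 are in the first bar), with the 10 vascular genes marked in red and a dashed line at 2-fold. All 10 lie left of the dashed line and within the main body of the distribution.

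Averaging over 4 kb can hide a narrow site, so the windows were also read in 400-bp bins. A bin was called FLI1-rich when it held at least 4 times the expected reads, the expectation being whichever was largest among the rate over the genome and the scaled input in 1, 5 or 10 kb around the bin. A rich bin was present in the TSS window of 2 of 10 vascular genes, against 27.1% of all genes. At *Icam2* the bin just before the TSS held 118 FLI1 reads for 17.6 expected, 6.7-fold, and at *Tie1* the bin just after it held 71 for 15.1, 4.72-fold. The highest bins of the other windows lay between 1.32-fold at *Cdh5* and 2.97-fold at *Tek*, where the first 400 bp of the gene held 42 FLI1 reads while the median bin of the window held 12.

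FLI1 was found further from the annotated starts. Within the genes and 20 kb to either side, 8 of 10 vascular genes had at least 1 FLI1-rich bin, against 52.6% of all genes, and 23 of their 2371 bins (0.97%) were rich, against 0.605% of the bins of all genes. Bins next to each other were joined into 18 sites, with 4 at *Esam*, 3 each at *Kdr* and *Flt1*, 2 each at *Icam2*, *F11r* and *Tie1*, and 1 each at *Jam3* and *Eng*. Of these sites 11 lay in introns, 3 in untranslated parts of exons and 4 between genes. Of the 18, 1 lay within 2 kb of the TSS of its own gene record, at *Icam2*. These bins start 20 kb before the gene and not at the TSS, and on them the reads at the *Tie1* start were divided between bins, the highest with 48 reads at 3.56-fold, so the rich bin of the *Tie1* TSS window is not among the 23 bins or the 18 sites. Within 2 kb of the TSS of any protein-coding gene lay 4 of 18 (22.2%, exact 95% interval 6.41 to 47.6), against 45.8% of the 13420 FLI1 sites called the same way around all genes. Counted from any coding transcript start, it was 6 of 18 (33.3%, 13.3 to 59), against 50.6%. The larger territories of long genes offer more bins, and the median territory held 198 bins for the 10 genes against 138 for all genes. The shares of genes with at least 1 rich bin are thus not compared at equal size. *Flt1* and *Tek*, the longest, had 3 sites and 0.

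The strongest site by FLI1 reads lay in an intron of *Flt1*, 4438 bp after the TSS, with 400 FLI1, 5 RUNX1 and 5 input reads within 200 bp of its summit, 22.7-fold over expectation. A second *Flt1* intron site at 67967 bp had 263 FLI1, 2 RUNX1 and 4 input reads (15.7-fold), and another at 151198 bp, deep in the gene body, had 118, 6 and 5 (8.61-fold). *Flt1* thus carried the most FLI1 of the 10 genes at a site while its TSS window stood near input. *Kdr*, the other VEGF receptor gene, had an intron site 16060 bp after the TSS with 181 FLI1, 5 RUNX1 and 6 input reads (10.4-fold). Its further sites, at 44735 bp in an untranslated part of an exon and at 39193 bp in an intron, were weaker, with 98 and 63 FLI1 reads.

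The main sites of 3 junction genes lay 2322 to 5345 bp after the TSS. *F11r* had an intron site 4084 bp after the TSS with 244 FLI1, 3 RUNX1 and 0 input reads (18.1-fold), and a smaller one at 2902 bp with 101, 4 and 7 (7.25-fold). *Esam* had its main site at 2322 bp, with 250, 2 and 3 reads (17.8-fold), and *Icam2* had its main site at 5345 bp, with 232, 1 and 6 reads (13.7-fold), beside the promoter site at -63 bp with 132, 3 and 10 (7.58-fold). Both main sites fell outside the TSS windows used above but beside another annotated start of a coding transcript. The *Esam* summit was 150 bp from a start at 2172 bp, and the *Icam2* summit was 51 bp from a start at 5294 bp. With windows placed at every coding transcript start, the highest FLI1 ratio became 3.59 for *Esam* and 2.35 for *Icam2*, so that 2 of 10 genes passed 2-fold, against 27.7% of the 21376 genes with at least 10 input reads in such a window.

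*Jam3* had 1 modest site 55713 bp after the TSS, with 84 FLI1, 1 RUNX1 and 7 input reads (5.57-fold). *Eng* had 1 site 8443 bp upstream, inside an intron of the neighbouring gene *Ak1*, with 182, 1 and 13 reads (8.71-fold). *Eng* remained the gene with the nearest TSS.

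Other sites were nearer to a gene that is not in the set. Both *Tie1* sites lay between genes, past its 3′ end, and neither had *Tie1* as the nearest TSS. The stronger, with 193 FLI1 reads, lay 44 bp from the TSS of another gene, and the other, with 166, lay 8276 bp from it. Of the *Esam* sites, those at 26298 and 23846 bp, with 201 and 86 FLI1 reads, were nearest to *Nrgn*, and the last, at -10371 bp, had 70. The TSS window of *Nrgn* had a FLI1 ratio of 2.25. The third *Flt1* site, in an intron of *Flt1*, was nearest to the TSS of *Pan3*, but far from both starts. It lay 144233 bp from that of *Pan3* and 151198 bp from that of *Flt1*. In all, 13 of 18 sites had a vascular gene of the set as the nearest TSS, and which gene a site acts on was not tested.

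*Cdh5* and *Tek* had 0 sites at these settings. At *Cdh5* the bin centred 2200 bp upstream of the TSS held 125 FLI1 reads, 9.28-fold over the genome-wide rate, but 14 input reads fell in it too and its expectation was 37.1 reads, so it stood at 3.37-fold and below the limit. It was called without input in the expectation or at a limit of 3-fold. At *Jam3* a bin centred at 45834 bp likewise held 89 FLI1 and 11 input reads, 3.84-fold. *Tek* had no such bin, and its highest was the 2.97-fold bin just after the TSS. The study's own peak calls, made by another method, match these sites in part and differ in part. For *Esam*, *F11r* and *Flt1* they give the nearest FLI1 peak, without its direction, at a distance from the TSS close to that of the strongest site here. The same calls place a FLI1 and a RUNX1 peak close to the *Kdr* TSS, where no rich bin was called here. For *Tek* they give the nearest FLI1 peak beyond 20 kb of the TSS without its direction, so it may lie inside or outside the territory. Over the whole territories, FLI1 was above input at *Esam* (1.62, 1.49 to 1.77), *F11r* (1.43, 1.31 to 1.56) and *Kdr* (1.14, 1.06 to 1.23), and between 0.817 and 1.01 at the other genes. Of these others, the interval lay below 1 at *Icam2* (0.836 to 0.997), *Cdh5* (0.803 to 0.935) and *Eng* (0.76 to 0.878). The *Esam* territory also holds the start of *Nrgn*.

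**Figure D3:**
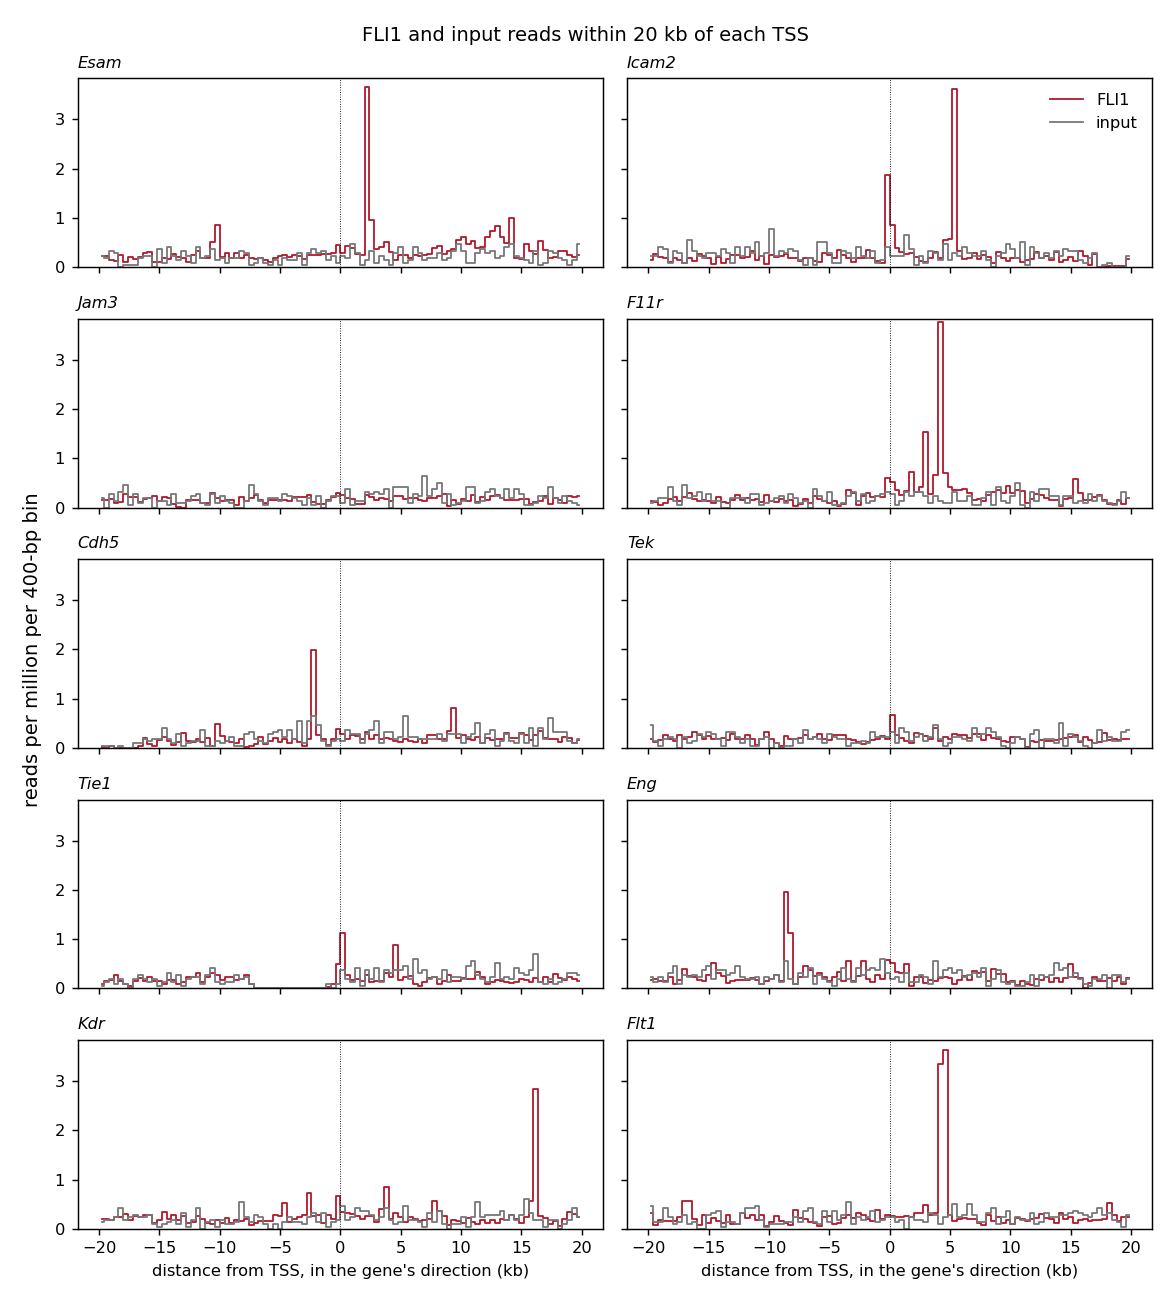
FLI1 (red) and input (grey) reads, as RPM, in 400-bp bins (vertical axis, linear from 0, the same in each panel) by distance from the TSS in the direction of the gene (horizontal axis, kb; dotted line at the TSS). Tall bins stand after the TSS at *Esam*, *Icam2*, *F11r*, *Kdr* and *Flt1*. The *Cdh5* bin before the TSS is tall in FLI1 (125 reads, with 11 and 17 in the bins beside it). It lies in a stretch of raised input (12, 14 and 10 reads in the same 3 bins, left to right). The flat stretch before *Tie1* held no reads in any library, and sites beyond 20 kb are not drawn.

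The reference sequence (mm9, plus strand, 5′ to 3′) is shown for the *Icam2* promoter site, the 1 of the 18 at the start of its own gene record, and for the strongest distal site, at *Flt1*; the further sites were chosen after their values were seen, as the main sites of the other genes with over 180 FLI1 reads inside the gene and the next *Flt1* site. Capitals mark words that ETS factors favour, on either strand: the word CAGGAAG, the word CAGGAAA, the word CCGGAAG or the word CCGGAAA. Each stretch is centred on the summit, and the *Esam* and *Icam2* sites in untranslated exons are shown as their central 29 bases.
Icam2 promoter, chr11:106249402-106249502: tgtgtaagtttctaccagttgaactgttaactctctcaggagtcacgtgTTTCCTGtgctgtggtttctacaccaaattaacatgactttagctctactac
Icam2 at 5345 bp, chr11:106244030-106244058: atgcagaggaagcCAGGAAGcagcagata
Flt1 at 4438 bp, chr5:148533099-148533199: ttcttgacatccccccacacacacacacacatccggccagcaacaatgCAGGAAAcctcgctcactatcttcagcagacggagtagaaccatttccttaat
Flt1 at 67967 bp, chr5:148469570-148469670: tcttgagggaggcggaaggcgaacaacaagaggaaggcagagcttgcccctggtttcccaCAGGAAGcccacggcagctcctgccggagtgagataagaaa
Esam at 2322 bp, chr9:37337971-37337999: ccgactgcagggatccgcCAGGAAAtgtc
F11r at 4084 bp, chr1:173371700-173371800: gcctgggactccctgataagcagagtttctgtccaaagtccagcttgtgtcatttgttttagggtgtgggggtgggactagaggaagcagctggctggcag
Kdr at 16060 bp, chr5:76358373-76358473: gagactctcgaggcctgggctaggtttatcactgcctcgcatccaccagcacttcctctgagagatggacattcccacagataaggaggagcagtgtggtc

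In 4 of these the word sat close to the summit: its centre was 1 bp away at *Flt1* (4438 bp), 2 bp away at both *Icam2* sites and 7 bp away at *Esam*. The strong *F11r* site and the *Kdr* site held none of the 4 words but did hold the GGAA core on 1 of the strands. Over the 18 sites, 9 (50%, exact 95% interval 26 to 74) had such a word within 50 bp of the summit, against 60.6% of all 13420 FLI1 sites and 11.1% of windows 500 bp to either side of the 18 sites. The core GGAA alone was present at all 18, but also in 88.9% of those side windows, so it separates little. GATA words (the word AGATAA, the word AGATAG, the word TGATAA or the word TGATAG, either strand) were present at 9 of 18 sites (50%, 26 to 74), against 18.2% of all FLI1 sites and 19.4% of the side windows. The 9 sites with a GATA word were not the 9 with an ETS word: 3 had both, 6 had a GATA word alone and 6 an ETS word alone. RUNX words (the word TGTGGT or the word TGCGGT) were present at 5 of 18 sites (27.8%, 9.69 to 53.5) against 17.9% of all FLI1 sites, and TGACTCA, the sequence that AP-1 and NF-E2 share in part, at 2 of 18 (11.1%, 1.38 to 34.7) against 4.15%. Of the sites with a GATA word, those at *Esam* at 26298 and 23846 bp were nearest to *Nrgn*. All FLI1 sites lay more often within 2 kb of a TSS than the 18 sites (45.8% against 22.2%). The word shares were not compared at like positions. A word match is a description of the sequence and does not show which factor was bound.

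FLI1 reads at the sites had the strand pattern of a point source. Over the 18 sites, 1112 plus-strand reads fell left of the summits and 387 right of them, and 307 minus-strand reads fell left and 1159 right. Each of the 18 sites showed this pattern on both strands. The summits were set from the same reads after extension, so the pattern is in part built in.

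RUNX1 around the starts of the vascular genes was near input for most of them. A ratio of at least 2 was found for 1 of 10, against 16.8% of all genes, and the median was 1.4-fold against 1.19-fold. The 1 gene was *Tek*, with 21 RUNX1 reads (5.28 RPM) against 52 input reads (2.39 RPM), a ratio of 2.21 (1.26 to 3.73). Its reads were spread, with at most 5 in a bin, and no bin was rich. The other ratios ran from 0.833 (0.317 to 1.86) at *Cdh5* to 1.56 (0.69 to 3.23) at *Jam3*, and each of these intervals included 1. A RUNX1-rich bin was present in the TSS window of 0 of 10 genes, against 2.88% of all genes.

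In the territories, 2 of 10 genes had a RUNX1-rich bin, against 10.4% of all genes, or 2 of 2371 bins (0.0844% against 0.0645%). The bin at *F11r* held 7 reads, 8.24-fold, and its summit, 2948 bp after the TSS, was 46 bp from the smaller FLI1 site of that gene. The bin at *Kdr* lay 50635 bp after the TSS, past the end of the gene, with 7 RUNX1 and 15 FLI1 reads at its summit, 4.16-fold over expectation and thus just past the limit of 4-fold, 5900 bp from the nearest FLI1 summit. Neither had a RUNX word within 50 bp. Both rested on the fewest reads that the limit allows, and neither was called with bins moved by 200 bp, when 1 bin at *Esam* was called in their place. In the study's own calls the nearest RUNX1 peak of *F11r* lay at a distance close to that of the bin here, without its direction. That of *Kdr* lay close to the TSS.

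RUNX1 was nevertheless raised where FLI1 was. Within 200 bp of the 18 FLI1 summits 57 RUNX1 reads were counted for 111 input reads, a depth-scaled ratio of 2.81 (2 to 3.9), while FLI1 itself stood at 9.54 (7.89 to 11.6). Single sites held 1 to 7 RUNX1 reads, with a median of 3, where 0.852 to 1.91 were expected. At places 10 kb to either side of the same sites, the ratio was 1.13 (0.789 to 1.59) for RUNX1 and 1.03 (0.879 to 1.22) for FLI1. Over all 13420 FLI1 sites the RUNX1 ratio was 2.91 (2.87 to 2.95), a value inside the interval of the 18. The most RUNX1 reads were at the *Esam* site 26298 bp after the TSS (7 reads, beside 2 RUNX words) and at the *Flt1* site at 151198 bp (6 reads), and the main *Icam2* and *Eng* sites held 1 each. In the RUNX1 file, plus- and minus-strand reads stood 159 bp apart 7795 times, against a median of 3193 over distances from 80 to 400 bp. The FLI1 file (851322 against 601252) and the input file (90553 against 62026) had such a maximum too. Whether some of these are both ends of 1 fragment was not tested, and if so the intervals would be too narrow.

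**Figure D4:**
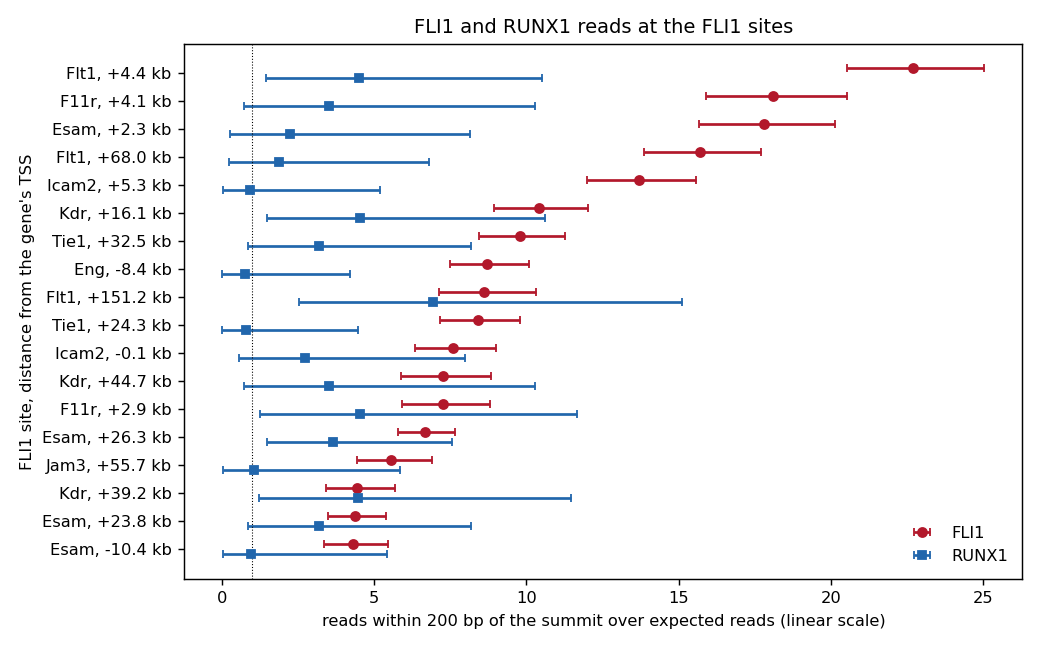
FLI1 (red) and RUNX1 (blue) reads within 200 bp of the summit divided by the expected reads (horizontal axis, linear) for the 18 FLI1 sites, named by gene and distance from its TSS (vertical axis); bars are exact 95% Poisson intervals of the read counts and the dotted line marks 1. FLI1 ran from 4.31-fold to 22.7-fold, and RUNX1 from 0.758-fold to 6.94-fold with intervals that overlap between the sites.

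The other genes of the same pathways were read in the same way. Of 29 genes for ligands, co-receptors and signal carriers of the VEGF, angiopoietin, TGF-β and cadherin routes, 10 had a FLI1 ratio of at least 2 at the TSS (25.7% over all genes) and the median was 1.59-fold. The highest were *Pik3ca*, a catalytic subunit of PI3-kinase, at 6.23-fold, *Ctnnd1*, which encodes the catenin p120 that binds cadherins, at 5.43-fold, and *Smad4*, the common mediator of TGF-β signals, at 3.11-fold. The lowest was the lymphatic VEGF receptor gene *Flt4*, at 0.424-fold (0.265 to 0.683). Of the ligands, *Angpt1*, which activates the *Tek* product, stood at 2.66-fold with 7 FLI1-rich bins in its territory, and *Vegfa* at 2.69-fold with 1. The other ligands were lower, with *Vegfc* at 1.3-fold, *Angpt2* at 1.04-fold, *Pgf* at 0.656-fold (0.486 to 0.891) and *Vegfb* at 0.633-fold (0.465 to 0.868). A RUNX1 ratio of at least 2 was found for 5 of 29, a share near the 16.8% of all genes.

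Among 54 further vascular genes, 9 (16.7%) had a FLI1 ratio of at least 2, against 25.7% of all genes, and the median was 1.15-fold. The highest were *Elk3*, itself an ETS factor gene, at 4.41-fold, *Tal1*, a regulator of blood and vessel formation, at 4.14-fold, and *Calcrl*, a receptor for adrenomedullin, at 3.39-fold, and the lowest was again *Flt4*. The lists are not separate: 8 of these genes are also among the 29 pathway genes, and *Selp* and *Vwf* are also among the 22 megakaryocyte genes. FLI1-rich bins were present in the territories of 41 of 54 (75.9%, against 52.6% of all genes) and made up 0.97% of their bins, the same share as at the 10 genes, against 0.605% over all genes. For the 22 megakaryocyte genes the median was 2.42-fold, 22 of 22 had a FLI1-rich bin in the territory, and 2.38% of bins were rich. Of the granulocyte and macrophage genes, with a median of 1.52-fold, 11 of 15 (73.3%) had such a bin, a share close to that of the vascular genes. Of the erythroid genes, with a median of 1.13-fold, 5 of 10 had one, and of the hepatocyte genes, with a median of 0.938-fold, 2 of 10. Genes differ in length and in neighbours, and these counts are descriptions of 1 library.

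**Figure D5:**
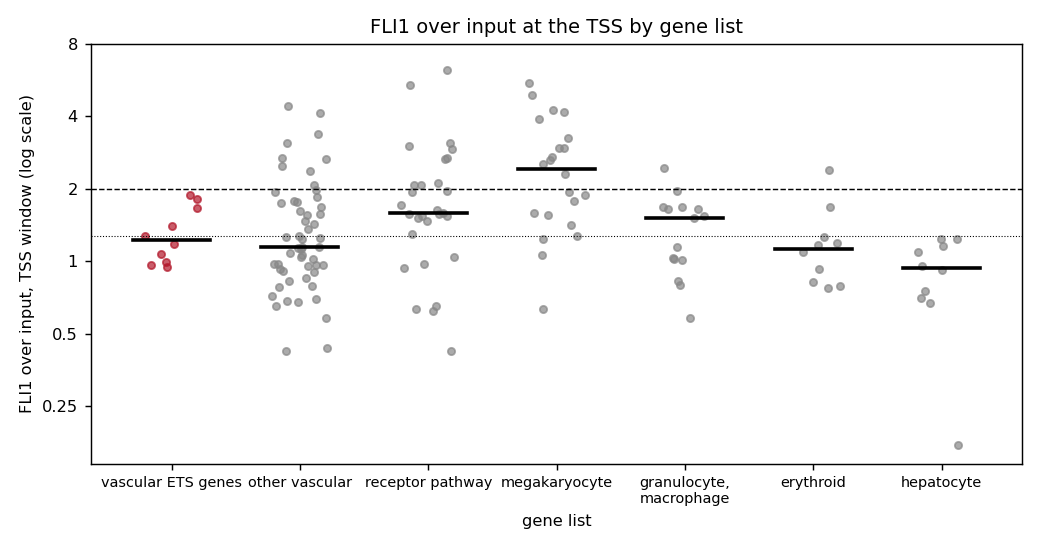
FLI1 over input in the TSS window (vertical axis, log scale) for the genes of each list (horizontal axis), with the 10 vascular genes in red; solid bars are medians, the dotted line is the median of all genes (1.28) and the dashed line is 2-fold. The vascular genes span 0.95 to 1.89 and lie below the dashed line, while the megakaryocyte median of 2.42 lies above it.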

How the data were processed

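ChIP-seq libraries of FLI1, RUNX1 and input were measured in mature MK, 1 each. Bowtie alignments to mm9 were made by the authors, who deposited each read's chromosome, start, end and strand; the values are positions, and every count given was made from them. Both ChIP files hold each position and strand once, as the methods state, but the input file does not. Reads were 50 bp long in both ChIP files and 34 bp in the input file. Any effect of this difference on the ratios to input, those below 1 included, was not tested. Input fragmentation was sonication per the labels and nuclease digestion per the methods. Reads on chromosome M and 727749 input reads at repeated positions were left out. Reads were shifted to the centre of their fragments (126, 159 and 158 bp for FLI1, RUNX1 and input) and scaled to depth. Genes were those of GENCODE M1. Rich bins needed at least 7 reads and 4-fold, with an effective genome of 1870000000 bp. Sites joined rich bins with at most 1 bin between. Ratio and count intervals are exact (Clopper-Pearson and Poisson, 95%) and cover counting error only. Python 3.11.15, NumPy 2.4.6 and SciPy 1.17.1 were used. The rich-bin calls and the ratio interval were tried on simulated data, the calls with reads placed at random on 1 chromosome. The interval was tried at higher counts than those of RUNX1 in the TSS windows. The genes, lists and named sites were chosen with earlier results of these data known: per gene up to 3 sites by FLI1 reads (the last *Esam* site was added after its values were seen), and per list the 3 highest and the lowest FLI1 ratio at the TSS. *Tspan18* matched 2 gene records and was left out. Results of some genes are not reported here.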

Additional observations from a re-analysis of the deposited data

How the results depend on the processing

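Of the recomputed answers 36 kept their value within the limits set and 17 moved, and of the single-gene ratios 103 stayed within their counting interval and 7 did not. For FLI1 over input at the TSS, 0 of 10 genes passed 2-fold, 1 without input (*Icam2*), 2 with all coding transcript starts (*Esam* and *Icam2*), 1 with FLI1 thinned to the RUNX1 depth (*F11r*), and 3 at a limit of 1.5 (*Icam2*, *F11r* and *Tie1*). For RUNX1 it was 1 of 10, 2 with all starts (*Esam* and *Tek*), 4 at a limit of 1.5 and 0 at a limit of 3. Over all genes the median and percentile 75 were 1.28 and 2.03 for FLI1 and 1.19 and 1.72 for RUNX1. The limit of 1.5 lies between them for both factors, so a large share of all genes also passed it. FLI1-rich TSS windows went from 2 to 1 (*Icam2*) with the input of the bin itself in the expectation or at a limit of 6-fold, to 0 with FLI1 thinned, and up to 3 (*Esam*, *Icam2* and *Tie1*) with the grid moved or with all starts. FLI1-rich bins in the territories went from 23 to 14 at 6-fold and to 13 with FLI1 thinned, the latter by construction with fewer reads, and up to 29 without input and 32 at 3-fold, both with 1 at *Cdh5*. RUNX1-rich bins went from 2 to 1 with the grid moved (*Esam*) or at 6-fold (*F11r*), to 15 with at least 5 reads and to 0 with at least 10. The share of sites with an ETS sequence went from 50% to 100% with GGAA alone. Apart from thinning and the limits themselves, the cause was not tested. No paired analysis was possible because each antibody has 1 library, and no replicate could be left out. At the RUNX1 depth the chosen minimum of 7 reads in a bin is 8.24-fold over the genome-wide rate.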

Other observations

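Some vascular genes outside the set, like *Flt1*, carried FLI1-rich bins although the interval of FLI1 over input at the start was not above 1; they were chosen after their values were seen. At least 1 such bin was present in the territories of 52.6% of all genes, and 0.605% of all territory bins were rich. Territories differ in size and take in neighbours. The nearest TSS of the bins was not examined for the genes named in this section. *Erg*, an ETS factor gene of endothelium, had a FLI1 ratio of 0.913 (0.635 to 1.34) at the TSS and 6 FLI1-rich bins in its territory. *Jam2*, a relative of *Jam3* and *F11r*, had a ratio of 0.969 (0.687 to 1.39) and 6 such bins. *Cd34*, a sialomucin of vessels and progenitors, stood at 0.973 (0.698 to 1.38) with 4, and *Notch4*, a receptor of arterial endothelium, at 0.584 (0.414 to 0.831), below input, with 4.

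Others had a FLI1 ratio with an interval above 1 at the start as well. *Pecam1*, an adhesion molecule of endothelium and platelets, stood at 2.07-fold (1.52 to 2.87) with 6 FLI1-rich bins, and *Egfl7*, a secreted vascular protein, at 1.76-fold (1.36 to 2.29) with 5.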
